A study of Setaria italica with 24 samples.

Results

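A group of 102 foxtail millet genes was examined whose transcripts were lower in AMF-treated than in mock-treated roots of the landraces Hanevalval and ISE36, while the averages of the cultivar TT8 stayed close to each other. The genes were chosen by a rule on the deposited values, from 23692 genes with an identifier of the SETIT_ kind that were listed for all 3 lines. For each line a ratio R was formed, which is log2 of the AMF mean plus 1 over the mock mean plus 1. A gene was kept when its mean was at least 5 in each line, when R was -2 or less in Hanevalval, when R was -1 or less in ISE36 with every AMF value below every mock value there, and when R lay between -0.5 and 0.5 in TT8. The comparison of AMF with mock in each line therefore chose the genes, and the values of those comparisons describe the genes without testing them.

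The study measured root RNA by sequencing in Setaria italica plants that received the arbuscular mycorrhizal fungus (AMF) Claroideoglomus etunicatum or were kept as mock, and asked how genetic background shapes the symbiosis. The groups were AMF and mock roots of Hanevalval, a landrace of Taiwan, AMF and mock roots of ISE36, a landrace of India that the library labels spell ICE36, and AMF and mock roots of TT8, a cultivar of Taiwan. Each group had 4 libraries, 24 in all, from roots collected 6 weeks post inoculation of plants grown in sterilized sand and peat moss. Each line stands for 1 genotype. The study calls the libraries of a group biological replicates, and the labels do not say whether each came from 1 plant or several. The spread between libraries may be partly technical as well. The libraries held between 15013564 and 23333517 reads on genes. RNA came from 1 part of the cut roots, with its cell types mixed, so fewer cells of a type and less RNA per cell cannot be told apart.

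In arbuscular mycorrhiza the fungus grows between and into cells of the root cortex and forms arbuscules, branched structures across which the plant receives phosphate and gives lipids and sugars. Plant cell walls are built of cellulose made by cellulose synthase (CesA) complexes at the plasma membrane, of hemicelluloses such as xylan and xyloglucan made in the Golgi, and, in thickened walls, of lignin, whose monomers are oxidized by laccases and peroxidases. Xyloglucan endotransglycosylases cut and rejoin xyloglucan chains in the wall. Grass walls are rich in xylan.

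A name was at hand for 6 of the 102 genes. For 3 it came from a supplementary table of cell wall genes and for 3 from labels of figures on cellulose and lignin, so that these 6 are wall genes follows from where names were given. They are a pair annotated as 1,4-beta-D-xylan synthase (SETIT_005721mg and SETIT_013204mg), a xyloglucan endotransglycosylase (SETIT_010719mg), a member of the CesA family (SETIT_000179mg), a gene labelled UDP-glucose-cellulose glucosyltransferase (SETIT_028762mg) and a laccase (SETIT_034916mg). The other 96 are known here by identifier alone, so the share of cell wall genes among the 102 is not given. CesA, laccase and xyloglucan endotransglycosylase genes are members of families, and reads shared with close relatives could have been left out of the counts or assigned to a relative.

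Of the 23692 genes, 23323 had a mean of at least 5 in each line, and 744 of them met the Hanevalval limit. The ISE36 limit left 410 genes, and the demand that AMF and mock values in ISE36 not overlap left 327. Of these 327 genes lowered in both landraces, 193 had a TT8 ratio below -0.5, 32 had one above 0.5 and 102 lay between, which is 0.437% of the 23323. Just inside the Hanevalval limit were SETIT_002848mg and SETIT_029388mg with R of -2.0032 and -2.0018, and just outside it SETIT_016494mg and SETIT_034354mg with -1.9996 and -1.9902. At the ISE36 limit SETIT_014705mg (-1.0214) and SETIT_014045mg (-1.0179) were kept, while SETIT_007209mg (-0.9963) and SETIT_026569mg (-0.9907) were not. The TT8 limits passed through a dense range in the same way. At the lower TT8 limit SETIT_020102mg (-0.4835) and SETIT_015567mg (-0.4798) were kept and SETIT_017211mg (-0.5067) and SETIT_011454mg (-0.5035) were not. At the upper one SETIT_030828mg (0.4943) and SETIT_005548mg (0.4786) were kept and SETIT_029539mg (0.5075) and SETIT_028381mg (0.5389) were not. The limits thus fell within a continuous range of ratios.

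**Figure D1:**
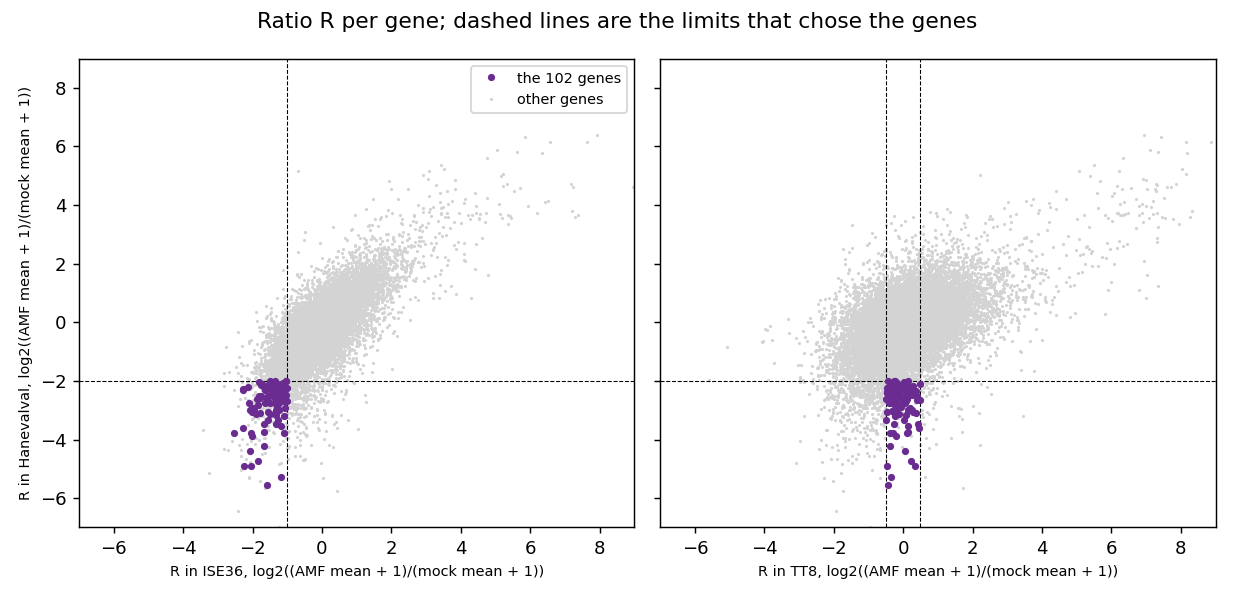
Ratio R of 23323 genes in Hanevalval (vertical axis) against ISE36 (left panel) and TT8 (right panel), each as log2 of the AMF mean plus 1 over the mock mean plus 1. The 102 genes are in purple and all others in grey, and dashed lines mark the limits at -2 (Hanevalval), -1 (ISE36) and -0.5 and 0.5 (TT8), beyond which other genes continue without a gap.

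The mock libraries were not alike. By principal component analysis the study found replicates grouped together in all but the mock roots of Hanevalval. Genes induced by colonization, which the study lists as induced in these same libraries, were used as markers of colonized cells. Of 12 such genes, 9 were listed in all 3 lines. Among them are RAM1, a transcription factor of the symbiosis, RAM2, an enzyme of lipid supply to the fungus, and PHT1;9, a mycorrhizal phosphate transporter. Summed over the 9, the normalized counts in AMF libraries were 554 to 5660 in Hanevalval, 329 to 1743 in ISE36 and 10443 to 18474 in TT8, with all 9 above 0 in every one. In mock libraries of ISE36 the sum was 1.77 to 6.62, with 1 to 4 of the 9 above 0. Mock libraries 1, 2 and 3 of TT8 summed to 2.79, 7.81 and 4.26 and mock libraries 1 and 2 of Hanevalval to 9.12 and 3.797. These 9 mock libraries were nearly free of marker reads, and the other 3 were not. Hanevalval mock library 3 reached 327 with all 9 above 0, Hanevalval mock library 4 reached 122 with 7 of 9 above 0 and RAM1 at 0, and TT8 mock library 4 reached 310.4 with all 9 above 0. PHT1;9 was at 97.0, 29.1 and 74.6 in those libraries, against 0 to 3.31 in the other 9 mock libraries. RAM1 and the subtilisin inhibitor on the list were at 0 in all of those 9. Group results below that rest on the 3 mock libraries with markers are given with them and, where stated, without them.

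**Figure D2:**
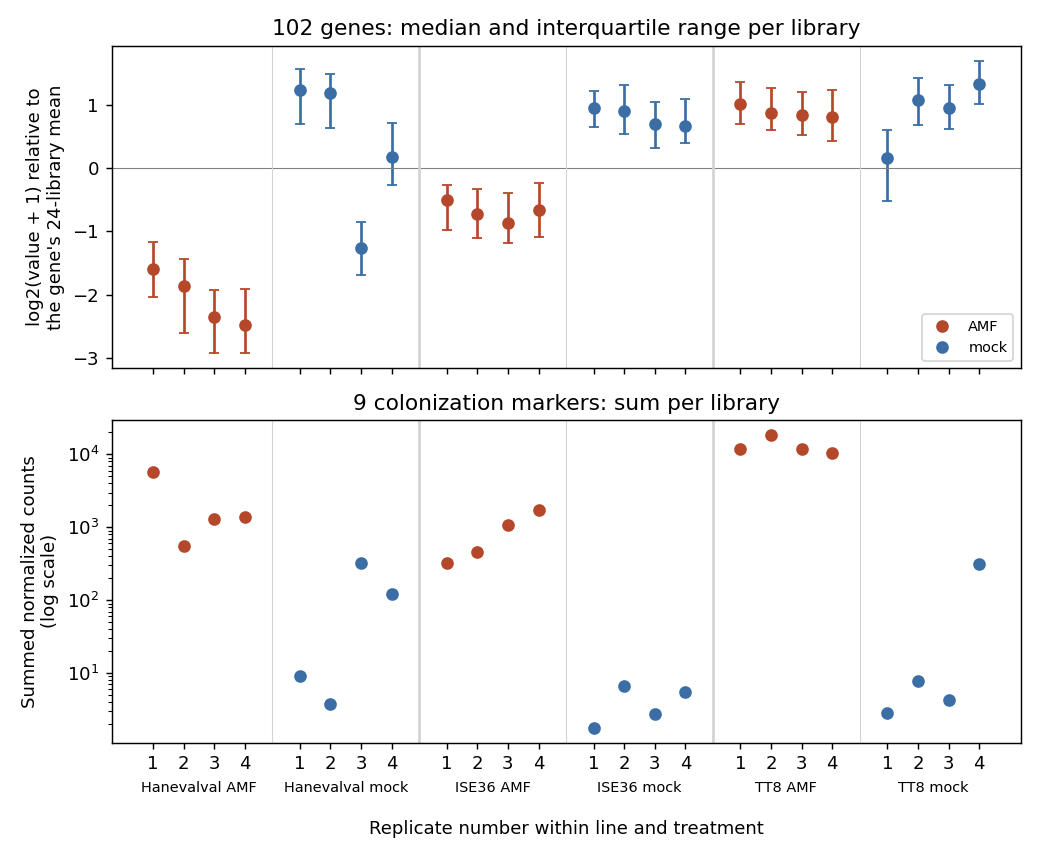
Upper panel, median and interquartile range over the 102 genes of log2(value + 1) relative to each gene's mean over 24 libraries, for each AMF (red) and mock (blue) library. Lower panel, sum of 9 colonization markers per library on a log scale; Hanevalval mock libraries 3 and 4 and TT8 mock library 4 lie at 327, 122 and 310.4, the other mock libraries at 1.77 to 9.12.

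The median of the 102 genes per library, on the log2(value + 1) scale and relative to each gene's mean over 24 libraries, gives the whole group in 1 number. It was -1.59, -1.86, -2.35 and -2.49 in the Hanevalval AMF libraries, against 1.24, 1.19, -1.26 and 0.18 in the mock libraries. Mock library 3 of Hanevalval thus lay nearer to the AMF libraries than to mock libraries 1 and 2, and mock library 4 lay between. In ISE36 the medians were -0.50, -0.72, -0.87 and -0.66 with AMF, against 0.96, 0.91, 0.70 and 0.67 in mock. In TT8 they were 1.03, 0.88, 0.85 and 0.81 with AMF, against 0.16, 1.09, 0.95 and 1.34 in mock. TT8 mock library 1 was low for the group, and TT8 mock library 4, the one with markers, was the highest of the 24.

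The share of all normalized counts that the 102 genes took gave a similar picture. Genes with high counts weigh most in this share, as means over 24 libraries ran from 7.69 to 22248 with a median of 272. That share was 0.137% to 0.250% in Hanevalval AMF libraries, against 1.83%, 1.78%, 0.302% and 0.740% in Hanevalval mock libraries. It was 0.324% to 0.425% in ISE36 AMF libraries, against 0.887% to 1.24% in ISE36 mock libraries. In TT8 it was 1.04% to 1.46% in AMF libraries, against 0.766%, 1.49%, 1.45% and 1.76% in mock libraries. The landrace mock libraries without markers and the TT8 libraries of both treatments therefore held shares of the same order.

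**Figure D3:**
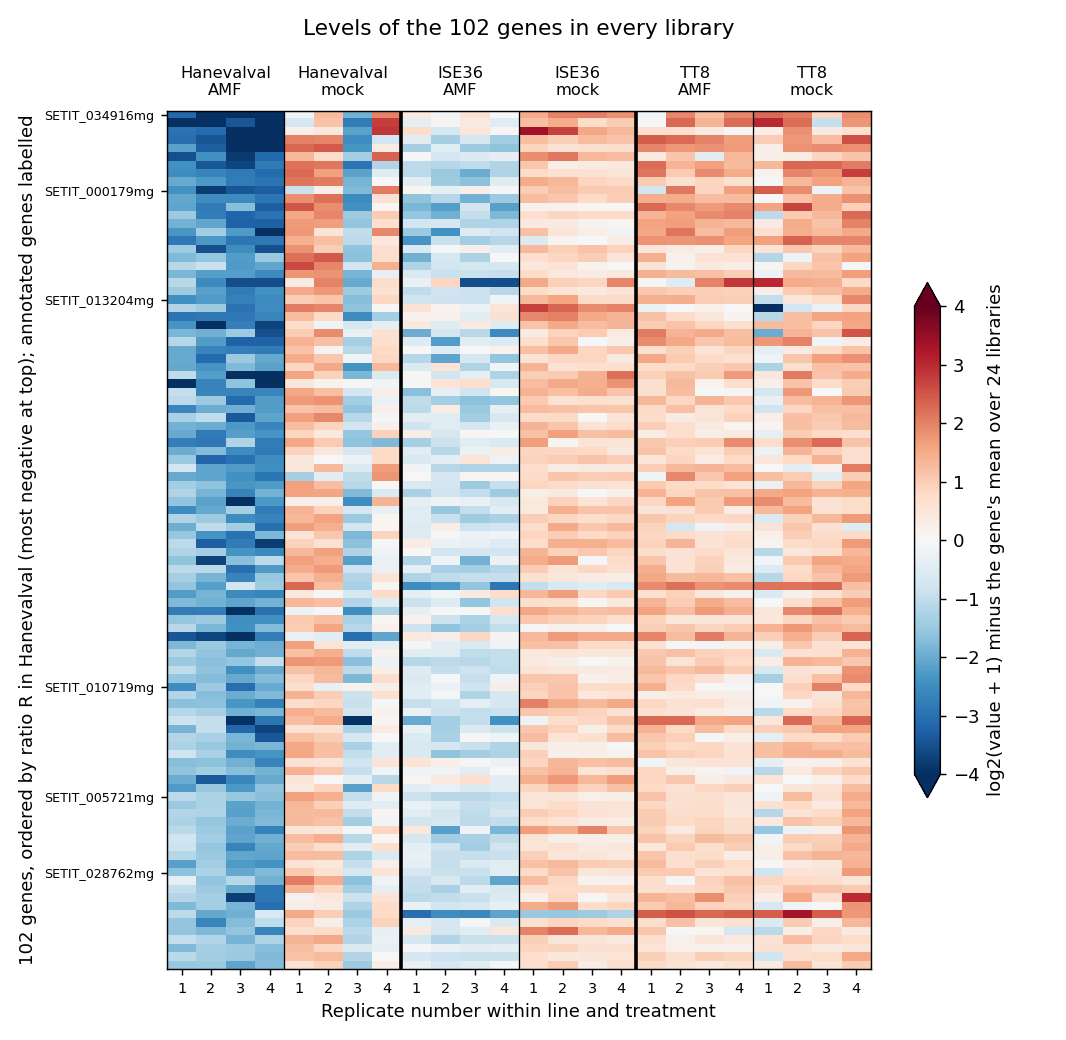
Level of each of the 102 genes (rows, most negative Hanevalval ratio at the top) in each of 24 libraries (columns, grouped by line and treatment, AMF left of mock), as log2(value + 1) minus the gene's mean over 24 libraries. Blue is low and red is high; Hanevalval mock library 3 is blue for most genes although it is a mock library, and TT8 mock library 1 is paler than the other TT8 libraries.

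Over the 102 genes R in Hanevalval had a median of -2.56 and ran from -5.56 to -2.0018, so that the mock mean plus 1 was 4.01 to 47.1 times the AMF mean plus 1. In 27 genes R was -3 or less and in 7 it was -4 or less. In ISE36 the median R was -1.41, with a range of -2.53 to -1.02 and folds of 2.03 to 5.77, and 13 genes had R of -2 or less. All 102 genes had a more negative R in Hanevalval than in ISE36, where the limits also differed. In TT8 the median R was -0.11 with a range of -0.48 to 0.49, and 58 genes were below 0 and 44 above. The median R of all 23323 genes was -0.03 in Hanevalval, -0.01 in ISE36 and -0.02 in TT8. Without the 3 mock libraries with markers the median R of the 102 genes was -3.05 in Hanevalval, with a range of -5.77 to -1.52 and folds of 2.86 to 54.6. In TT8 it was then 0.04 with a range of -0.59 to 1.29, and 78 genes stayed between -0.5 and 0.5, 19 lay above and 5 below.

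The AMF and mock values of Hanevalval did not overlap for 60 of the 102 genes, where 9.08% of all genes tested in that line had every AMF value below every mock value. Mock library 3 was the lowest of the 4 Hanevalval mock libraries for 97 genes, and for 42 it fell within or below the AMF range. Neither count was set beside all genes. With mock library 3 left out 101 genes had no overlap, beside 17.4% of the 23323 genes, and without mock libraries 3 and 4 all 102, beside 32.4%. In ISE36 the rule fixed the count at 102, beside 14.7% of all genes. In TT8 3 of the 102 genes had every AMF value below every mock value, beside 12.1% of all genes, and none had the opposite order, beside 12.6%. Without TT8 mock library 4 3 genes had the first order, beside 23.7%, and 10 genes had every AMF value above every mock value, beside 26.2%.

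With limma on log2(value + 1) a gene was called when its log2 fold change was 1 or more in size and its p, adjusted by Benjamini and Hochberg over all genes tested, did not exceed 0.05. In Hanevalval 31 of the 102 genes were called lower, beside 1.41% of 24847 genes, and 100 were lower at an unadjusted p under 0.05. The count depended on the tool, with 50 genes called by edgeR (beside 1.93% of all genes), 101 by DESeq2 (9.49%) and 101 by 1 limma fit over the 24 libraries (10.1%). With limma it also turned on single libraries. Without mock library 3 it was 101, beside 8.86% of all genes, and without AMF library 2 it was 2, beside 0.133%. Without any of the other 6 libraries it was 0, and then no gene of the whole table was called lower. Without mock libraries 3 and 4 together it was 102, beside 15.2%. Over the 102 genes the median log2 fold change was -2.36 with all 8 libraries. It was -2.89 without mock library 3, -2.40 without mock library 4 and -3.19 without both. Leaving out the lowest mock library makes such values more negative by itself, and that was mock library 3 for 97 genes. Colonized mock plants and mixed libraries cannot be told apart here, and what part either had in this was not tested.

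In ISE36 101 of the 102 genes were called lower, beside 4.81% of 25036 genes. With each library left out in turn 89 to 100 genes were called, beside 3.62% to 5.68% of all genes. In 1 limma fit over the 24 libraries 59 were called, beside 3.01% of 23618 genes. edgeR and DESeq2 each called 101, beside 4.89% and 5.31% of all genes. The median log2 fold change with all 8 libraries was -1.42. For these genes the ISE36 mock libraries had a median standard deviation of 0.22 on the log2 scale, beside 0.26 over all genes. The rule kept only genes without overlap in ISE36, which favours a small spread and steady calls in this line.

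In TT8 limma called 0 of the 102 genes lower and 0 higher, beside 6.1% and 10.6% of 24880 genes. None of the 102 had an unadjusted p under 0.05 with a fold change of that size, where 1889 of all genes were lower by it. edgeR and DESeq2 also called 0, beside 6.37% and 7.13% of all genes lower and 8.28% and 10.4% higher. The 95% intervals of the log2 fold change lay wholly between -1 and 1 for 51 genes. They reached 1 or more for 39 genes and -1 or less for 23, so for these genes a change of 1 on the log2 scale lay within the interval. The averages were steady by the rule, while the single libraries were not. Without TT8 mock library 1 the median log2 fold change was -0.27 and without TT8 mock library 4 it was 0.13, against -0.01 with all 8 libraries and a median of -0.01 over all genes. With values rescaled to CPM both medians moved together, to -0.24 for the 102 genes and -0.25 for all genes. Without mock library 4 limma called 5 of the 102 genes higher, beside 14.9% of 24904 genes.

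**Figure D4:**
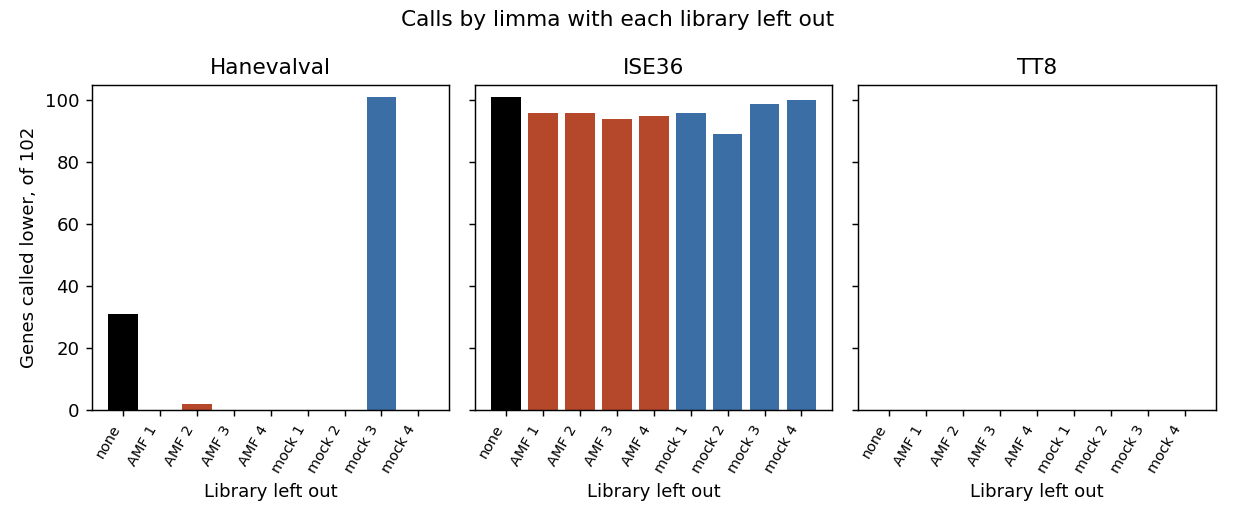
Number of the 102 genes called lower in AMF roots by limma (vertical axis) with no library left out (black), each AMF library left out (red) and each mock library left out (blue), for Hanevalval, ISE36 and TT8. The Hanevalval count runs from 0 to 101, the ISE36 count from 89 to 101, and every TT8 count is 0.

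The 3 genes without overlap in TT8, named here after their values were seen, were SETIT_009882mg, SETIT_018547mg and SETIT_037045mg. SETIT_037045mg had 4317, 3846, 3955 and 3196 normalized counts in TT8 AMF libraries, against 5131, 5774, 4947 and 5161 in TT8 mock libraries. Its TT8 ratio was -0.46, and those of SETIT_009882mg and SETIT_018547mg were -0.46 and -0.44, all near the lower limit of the rule. These genes were lower with AMF in all 3 lines, by the least in TT8. Their adjusted p by limma in TT8 was 0.027 for SETIT_009882mg, 0.042 for SETIT_018547mg and 0.034 for SETIT_037045mg. Their fold changes were below the size needed for a call.

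The spread between libraries of a group was unequal. The median standard deviation of the 102 genes on the log2 scale was 0.61 in Hanevalval AMF and 1.25 in Hanevalval mock, beside 0.28 and 0.47 over all genes. In ISE36 it was 0.38 with AMF and 0.22 in mock, beside 0.24 and 0.26 over all genes. In TT8 it was 0.26 with AMF and 0.68 in mock, beside 0.24 and 0.34 over all genes. The mock groups of Hanevalval and TT8 were thus the most variable for these genes, and the rule compares means of such groups. The rule barred overlap in ISE36 alone, which favours genes with a small spread there. Without the libraries with markers the median was 0.23 over the remaining 2 Hanevalval mock libraries and 0.66 over the remaining 3 of TT8, beside 0.18 and 0.25 over all genes.

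In TT8 mock library 1 80 of the 102 genes had their lowest value of the 4 mock libraries, and in mock library 4 56 had their highest. In Hanevalval mock 51 genes were highest in library 1, 35 in library 2, 16 in library 4 and 0 in library 3. The 16 genes highest in Hanevalval mock library 4 include the CesA gene and the laccase. Of 7 genes highest in TT8 mock library 1, 5 were among those 16, again with the CesA gene and the laccase. The 102 genes therefore did not all follow 1 order of libraries. These counts were not set beside counts over all genes.

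The lowest of the 6 group means was almost always the same. The AMF group of Hanevalval had the lowest mean for 100 of the 102 genes and the AMF group of ISE36 for the other 2. For 94 genes both landrace AMF means were below all 4 other group means. The highest mean was in TT8 mock for 37 genes, ISE36 mock for 34, TT8 AMF for 26 and Hanevalval mock for 5. By the rule no gene could have its highest mean in a landrace AMF group. Without the 3 mock libraries with markers Hanevalval mock had the highest mean for 53 genes, ISE36 mock for 21, and TT8 mock and TT8 AMF for 14 each, so the order at the top turned with those libraries. The counts of 100 and 94 at the bottom stayed as they were. The rule set AMF means below mock means in the landraces and kept TT8 means close, so these counts follow in part from it. They were not set beside counts over all genes.

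Between lines, the levels of the 102 genes were set side by side within a treatment, in a limma model of the 6 groups with the same thresholds, where Hanevalval or ISE36 is compared with TT8. In AMF roots all 102 genes were called lower in Hanevalval than in TT8, with a median log2 difference of -2.96, beside 14.9% of 23557 genes. Every Hanevalval AMF library lay below every TT8 AMF library for all 102 genes, beside 23.7% of the 23323 genes. In AMF roots of ISE36 65 genes were called lower than in TT8, beside 9.08% of 23492 genes, with a median of -1.55, and 78 genes had no overlap, beside 21.6%. The RNA sums of the colonization markers, given above, were also lower in both landraces than in TT8, and their part in these differences was not tested. By staining, done on the part of the roots not used for RNA, the study reported similar colonization in these lines. It also reported that the induction of conserved symbiosis genes varied between lines.

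In mock roots 5 of the 102 genes were called lower in Hanevalval than in TT8, beside 1.55% of genes, and 0 higher, beside 2.22%. Over all libraries the median difference was -0.48, and without the 3 mock libraries with markers it was 0.51, with 2 genes called lower, beside 1.67% of genes, and 6 higher, beside 2.82%. The direction of the mock difference between Hanevalval and TT8 therefore turned with those libraries. In mock roots of ISE36 4 genes were called lower than in TT8, beside 5.92%, and 5 higher, beside 10.5%, with a median difference of -0.04. Since the rule fixed low AMF values relative to mock in the landraces and not in TT8, the counts in AMF roots follow in part from it.

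The difference of the AMF responses between lines was an interaction term in the same model, at an adjusted p of at most 0.05. It was called for 84 of the 102 genes between Hanevalval and TT8, all with the more negative response in Hanevalval, beside 8.81% of genes in that direction. Between ISE36 and TT8 it was called for 14 genes, beside 8.11%. There 62 had an unadjusted p under 0.05, beside 3844 of 23492 genes in that direction. Both directions were fixed by the limits of the rule. Between Hanevalval and ISE36 limma called 0 of the 102 genes, beside 0.017% of 23525 genes, and edgeR also called 0, beside 0.051%. With limma 21 had an unadjusted p under 0.05 and a more negative response in Hanevalval, beside 1122 of all genes. With edgeR 45 did, beside 1519 of all genes.

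Without the 3 mock libraries with markers the interaction was called for 101 of the 102 genes between Hanevalval and TT8, beside 4685 of 23479 genes tested. Between ISE36 and TT8 it was called for 74, beside 18.8%, and between Hanevalval and ISE36 for 63, beside 8.57%. The counts over all genes rose together with those of the 102. The model shares 1 estimate of the spread over all lines, so a variable mock group in Hanevalval also enters the comparison of ISE36 with TT8, where 47 genes were called without Hanevalval mock library 3 alone, beside 9.59% of all genes.

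The 6 annotated genes are given library by library, and they need not stand for the group. Values are normalized counts in libraries 1 to 4 of each group, not corrected for gene length, and log2 fold changes are from limma with their standard errors.

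The xylan synthase SETIT_005721mg, of the kind that builds the backbone of xylan, had 6156, 5275, 4463 and 4065 normalized counts in Hanevalval AMF libraries, against 40240.2, 34611, 6807 and 11266 in mock libraries. In ISE36 it had 7082, 5907, 5953 and 6466 in AMF libraries, against 18196, 18089, 14653 and 15239 in mock libraries. In TT8 the values were 28091, 19847, 20146 and 17866 in AMF libraries, against 11700.5, 31108, 19788 and 35751 in mock libraries. The groups did not overlap in either landrace, although Hanevalval mock library 3 (6807) came close to AMF library 1 (6156), and in TT8 the AMF values lay inside the mock range. The log2 fold changes were -1.88 ± 0.54 in Hanevalval, -1.38 ± 0.12 in ISE36 and -0.09 ± 0.36 in TT8.

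The other xylan synthase, SETIT_013204mg, had 849, 965, 715 and 820.2 normalized counts in Hanevalval AMF libraries, against 9148, 10067, 1436 and 8303 in mock libraries. Its ISE36 values were 2707, 2616, 2562 and 4185 in AMF libraries, against 11349, 14034, 7990.4 and 7935 in mock libraries. In TT8 it had 12395, 12886, 9353 and 9112 in AMF libraries, against 2338, 6415, 7718 and 17498 in mock libraries. Here mock library 3 of Hanevalval was low while mock library 4 was close to libraries 1 and 2, and 3 of 4 TT8 mock libraries were below every TT8 AMF library. Limma gave log2 fold changes of -2.79 ± 0.57 in Hanevalval, -1.76 ± 0.22 in ISE36 and 0.69 ± 0.51 in TT8, and the 95% interval in TT8 ran from -0.47 to 1.84.

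The xyloglucan endotransglycosylase SETIT_010719mg had low counts. It had 9.86, 20.9, 6.30 and 14.0 normalized counts in Hanevalval AMF libraries, against 92.3, 48.4, 65.3 and 70.1 in mock libraries. The ISE36 roots had 44.5, 49.7, 33.5 and 69.9 in AMF libraries, against 117, 131, 100.4 and 104 in mock libraries. Its TT8 values were 165, 101, 59.8 and 56.0 in AMF libraries, against 59.6, 115, 241 and 104 in mock libraries. For this gene Hanevalval mock library 3 was between the other mock libraries and lay above every AMF library. The log2 fold changes were -2.43 ± 0.38 in Hanevalval, -1.22 ± 0.23 in ISE36 and -0.40 ± 0.46 in TT8.

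The CesA gene SETIT_000179mg had 152, 58.6, 75.6 and 81.6 normalized counts in Hanevalval AMF libraries, against 445, 965, 238 and 3451 in mock libraries. ISE36 gave 855, 632, 993 and 773 in AMF libraries, against 1616, 1940.1, 1708 and 1661 in mock libraries. The TT8 roots had 484, 3522, 1498 and 2567 in AMF libraries, against 4350.2, 3058, 690.0 and 1823 in mock libraries. The 4 values of ISE36 mock were close together, while those of TT8 spread widely in both treatments and the single Hanevalval mock library 4 carried most of the Hanevalval mock mean. Limma gave log2 fold changes of -3.15 ± 0.74 in Hanevalval, -1.10 ± 0.14 in ISE36 and -0.34 ± 0.70 in TT8, where the 95% interval ran from -1.91 to 1.24.

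The gene labelled UDP-glucose-cellulose glucosyltransferase, SETIT_028762mg, had 1293, 1677, 972 and 1197 normalized counts in Hanevalval AMF libraries, against 8384, 6134, 2464 and 5968 in mock libraries. For ISE36 the counts were 2561, 2188, 2166 and 2942 in AMF libraries, against 6854, 8882, 5579.8 and 5798 in mock libraries. TT8 gave 8328, 8414, 5956 and 5983 in AMF libraries, against 2344, 5912, 5871 and 13290.2 in mock libraries. The groups were apart in both landraces, and TT8 mock libraries 1 and 4 marked the lowest and highest TT8 values. The log2 fold changes were -2.06 ± 0.36 in Hanevalval, -1.45 ± 0.17 in ISE36 and 0.30 ± 0.45 in TT8.

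The laccase SETIT_034916mg had the most negative ratio of the 102 genes in Hanevalval. It had 25.2, 2.98, 2.1 and 2.15 normalized counts in Hanevalval AMF libraries, against 209, 546, 60.6 and 897 in mock libraries. In ISE36 it had 302, 212, 345 and 226 in AMF libraries, against 638, 901, 930.4 and 811 in mock libraries. For TT8 the counts were 212, 865, 525 and 866 in AMF libraries, against 1106, 973, 412 and 840.0 in mock libraries. In 3 of 4 Hanevalval AMF libraries the laccase was at 2.98 normalized counts or less, while in ISE36 AMF libraries it was at 212 or more. Limma gave log2 fold changes of -5.64 ± 0.96 in Hanevalval, -1.61 ± 0.18 in ISE36 and -0.54 ± 0.47 in TT8.

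**Figure D5:**
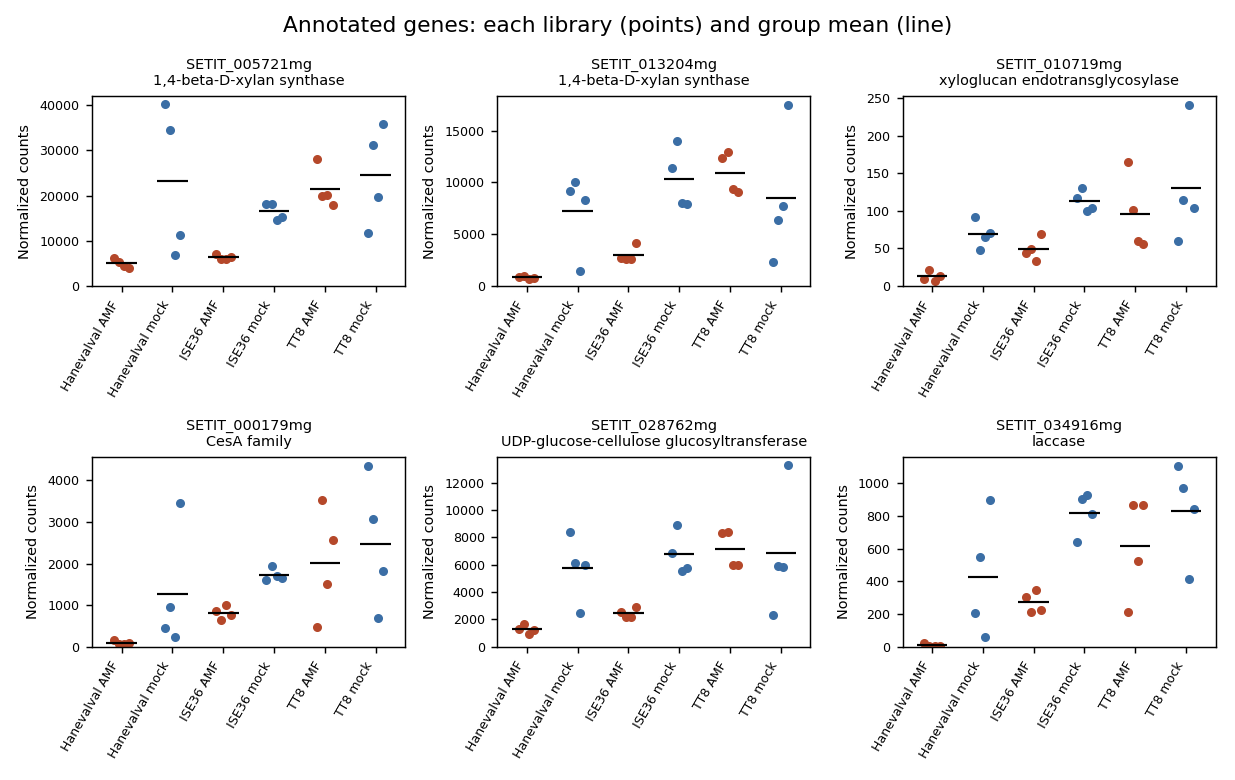
Normalized counts of the 6 annotated genes in each library (points; AMF red, mock blue) with the group mean (black line), for Hanevalval, ISE36 and TT8, AMF left of mock. ISE36 AMF points lie below all ISE36 mock points in every panel, as the rule required, while TT8 AMF and mock points overlap in every panel.

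The 5 genes with the highest mean over the 24 libraries are the xylan synthase SETIT_005721mg, described above, and SETIT_035429mg, SETIT_004144mg, SETIT_009973mg and SETIT_000964mg, for which no name was at hand. SETIT_035429mg had 8344, 5529, 3104 and 4232 normalized counts in Hanevalval AMF libraries, against 37784, 42948, 8147 and 19929.5 in mock libraries. Its ISE36 values were 11764, 8745, 9618 and 8348 in AMF libraries, against 24539, 23389, 21709.9 and 21105 in mock libraries. In TT8 it had 41870.2, 37255, 41871 and 33824 in AMF libraries, against 11133, 25294, 24928 and 58542 in mock libraries. Hanevalval mock library 3 fell just under AMF library 1, so the Hanevalval groups overlapped by that pair. The ratio R was -2.36 in Hanevalval, -1.24 in ISE36 and 0.37 in TT8.

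SETIT_004144mg had 5441, 4672, 2867 and 4408 normalized counts in Hanevalval AMF libraries, against 26889.9, 30074, 4691 and 8644 in mock libraries. The ISE36 roots had 6389.9, 4644, 5653 and 5641 in AMF libraries, against 20442, 14625, 14846 and 13428 in mock libraries. Its TT8 values were 16661, 11801, 15147 and 13615 in AMF libraries, against 15722, 24588, 18967 and 17575 in mock libraries. TT8 was lower with AMF on average, with R of -0.43, and the 2 groups overlapped only through AMF library 1 and mock library 1. R was -2.02 in Hanevalval and -1.50 in ISE36.

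SETIT_009973mg had 3502, 2694, 1911 and 2100.0 normalized counts in Hanevalval AMF libraries, against 18044, 21622, 3978 and 8914 in mock libraries. ISE36 gave 5794, 5675, 3939 and 4158 in AMF libraries, against 10736, 11036, 10933 and 10938 in mock libraries. The TT8 roots had 16746, 17828, 15153 and 14448 in AMF libraries, against 5244, 11768, 12540.1 and 21092 in mock libraries. Its ISE36 mock values were nearly identical, and 3 of 4 TT8 mock libraries lay below all TT8 AMF libraries. R was -2.36 in Hanevalval, -1.16 in ISE36 and 0.34 in TT8.

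SETIT_000964mg had 1739, 1531, 688 and 662 normalized counts in Hanevalval AMF libraries, against 20789, 20482, 2163 and 10160.0 in mock libraries. For ISE36 the counts were 3806, 4074, 2780.2 and 2816 in AMF libraries, against 8333, 8226, 7112 and 6802 in mock libraries. TT8 gave 19467, 20356, 16523 and 15729.7 in AMF libraries, against 8074, 17939.9, 14051 and 25512 in mock libraries. The Hanevalval groups did not overlap even with mock library 3, and R was -3.53 there, against -1.18 in ISE36 and 0.14 in TT8.

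Without the mock libraries with markers R in Hanevalval ran from -5.38 for SETIT_034916mg to -2.38 for SETIT_010719mg over these 10 genes. In TT8 it then left the window of the rule for 5 of them, with 0.99 for SETIT_013204mg, 0.92 for SETIT_035429mg, 0.70 for SETIT_009973mg, 0.61 for SETIT_028762mg and -0.53 for SETIT_010719mg. The other 5 stayed between -0.5 and 0.5.

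A list of 53 hemicellulose and wall-modifying genes was taken from a supplementary table. It had been chosen on these same libraries, so its direction is not independent evidence. Limma called 12 of 52 tested genes of that list lower and 0 higher in Hanevalval, beside 1.41% of all genes lower, although 49 of the 52 had a log2 fold change of -1 or less. Without Hanevalval mock libraries 3 and 4 it called 45 of 51 lower, beside 15.2%. In ISE36 it called 20 of 51 lower, beside 4.81%, and 0 higher. In TT8 it called 5 of 52 lower, beside 6.1%, and 1 higher, beside 10.6%, and without mock library 4 it called 7 lower, beside 9.18%, and 3 higher, beside 14.9%. Their median log2 fold change was -1.65 in Hanevalval, -0.93 in ISE36 and -0.56 in TT8, beside 0.01, -0.01 and -0.01 over all genes. Of 49 that could be judged by the rule in all lines, 19 met the Hanevalval limit, 10 met both landrace conditions and 3 are among the 102, namely both xylan synthases and the xyloglucan endotransglycosylase. Of the 10, 6 had a TT8 ratio below -0.5, a share close to the 59.2% (193 of 327) of all genes that met the landrace conditions.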

How the data were processed

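Root RNA libraries (KAPA mRNA HyperPrep, 24 in all) were processed by the authors, who trimmed reads with Trimmomatic 0.38, used HISAT2 2.1.0 for alignment to genome v2.0 of S. italica and featureCounts 2.0.0 for counting, and scaled every library by its DESeq2 1.26.0 size factor. The deposited signal values, called normalized counts, are the counts divided by those factors, in 1 table per line. Dividing by the step of each library gave whole reads for 100% of 607864 values (tolerance 0.001). DESeq2 size factors recomputed over the 24 libraries differed from the deposited ones by ratios of 0.998 to 1.00, so the tables share 1 scaling and lines could be compared. 0 columns lacked a sample.

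AMF was compared with mock per line in limma 3.58.1 (R 4.3.3) on log2(value + 1), with a variance trend, over genes averaging 5 or more in the line, and lines were compared in a model of 6 group means over 24 libraries. Fold changes on this scale understate those of low genes. Alternatives were edgeR 4.0.16 and DESeq2 1.42.0 on the recovered reads, another pseudocount (8), CPM scaling, no filter, another minimum mean (50), mean log2 values, a replicate block, 1 fit over 24 libraries and each library left out. Leaving out the mock libraries with colonization markers together was chosen after seeing the data. The scripts were tested on simulated data. Summaries used pandas 2.3.3 and scipy 1.17.1 in Python 3.11.15, and plots matplotlib 3.10.9.

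The 102 genes, the gene lists and the tests were chosen with earlier results of these data known. Values in every library are given for members that the paper names and for the 5 with the highest mean over 24 libraries, and ratios for the 2 genes on each side of each limit. The reference table matched 0 of 26638 identifiers, so function groups by product name, other cell type markers, promoter motifs and sequences were not analysed here. The deviations of AMF and mock libraries with the same replicate number correlated at -0.136 to 0.228 within a line, so the numbers were not taken as pairs.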

Additional observations from a re-analysis of the deposited data

Results flagged for a closer look

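In 72 groups of 4 libraries, 1 library lay far from the other 3 in 4 cases, where about 1 in 20 groups is marked by chance. The sum of 9 colonization markers was 5660 in Hanevalval AMF library 1, against 554 to 1405 in the other Hanevalval AMF libraries, and 310.4 in TT8 mock library 4, against 2.79 to 7.81 in the other TT8 mock libraries. The laccase SETIT_034916mg was at 25.2 normalized counts in Hanevalval AMF library 1, the library with the highest marker sum of its group, against 2.1 to 2.98 in the others. The xylan synthase SETIT_013204mg was at 4185 in ISE36 AMF library 4, against 2562 to 2707 in the others.

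The response to AMF differed between Hanevalval and TT8, by the limma interaction term, for 9 of the 10 genes described in every library. The differences of log2 fold changes, Hanevalval minus TT8, were -1.785 for SETIT_005721mg, -3.475 for SETIT_013204mg, -2.025 for SETIT_010719mg, -2.809 for SETIT_000179mg, -2.358 for SETIT_028762mg, -5.104 for SETIT_034916mg, -2.797 for SETIT_035429mg, -2.628 for SETIT_009973mg and -3.474 for SETIT_000964mg. Between ISE36 and TT8 the differences, ISE36 minus TT8, were -2.451 for SETIT_013204mg and -1.748 for SETIT_028762mg, and the other 8 did not pass. The limits that chose the genes fixed the direction of all of these differences, so they are a description.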

How the results depend on the processing

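The number of genes meeting the rule was 102, and between 70 and 110 with another pseudocount, CPM scaling, another minimum mean or mean log2 values, with 69 to 102 genes shared. It was 78 to 154 with each library left out (154 without Hanevalval mock library 3) and 176 without the 3 mock libraries with colonization markers, 78 of them shared. The number called lower in Hanevalval, 31 with limma, was 50 with edgeR, 101 with DESeq2, 101 in 1 limma fit over the 24 libraries, 102 without the marker-bearing mock libraries and 0 to 101 with each library left out. In ISE36 the 101 calls became 59 in 1 fit over the 24 libraries. In TT8 the number called higher was 0 to 5 with each library left out, the 5 without mock library 4, beside 4.99% to 14.9% of all genes. For the difference of responses the ranges with each library left out were 55 to 101 for Hanevalval against TT8, 5 to 47 for ISE36 against TT8 and 0 to 12 for Hanevalval against ISE36. Of all genes 5.49% to 14.1%, 4.45% to 13.9% and 0.00425% to 0.876% were then called in the same direction. Without the marker-bearing mock libraries the last 2 comparisons gave 74 and 63, beside 18.8% and 8.57% of all genes. In mock roots of Hanevalval against TT8 the ranges with each library left out were 3 to 18 lower and 0 to 1 higher. The shares of all genes were then 0.837% to 4.08% lower and 1.16% to 6.64% higher. Without the marker-bearing libraries 2 were lower, beside 1.67%, and 6 higher, beside 2.82%. In mock roots of ISE36 against TT8 the ranges were 4 to 8 lower and 3 to 8 higher, beside 4.43% to 7.34% and 7.76% to 13.1%. By edgeR 8 were lower, beside 6.41%. Without the marker-bearing libraries 8 were lower, beside 8.32%, and 12 higher, beside 14.5%. The cause of these changes was not tested.

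Replicate numbers were not shown to pair the libraries. With the replicate block 74 genes were called lower in Hanevalval, beside 3.95% of all genes, and 30 differed in response between ISE36 and TT8, beside 7.51%. Other counts stayed within 1.5 times. The log2 fold changes of the 10 genes given in every library moved by less than 1 standard deviation in 457 comparisons with an alternative. They moved by more in 3, all in Hanevalval without the marker-bearing mock libraries, to -2.92 for SETIT_005721mg, -2.75 for SETIT_004144mg and -2.99 for SETIT_009973mg.

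At 15013564 or more reads on genes per library, depth limits only the low values, such as the laccase in Hanevalval AMF libraries.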
